A study of Mus musculus with 16 samples.

Results

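The genes described here encode signals of the TGF-beta, Wnt, Notch and growth factor families, measured in whole lung of mice in a model of experimental asthma. They were chosen by name: every gene of the array platform whose symbol begins with Wnt and a digit, Fzd, Sfrp, Dkk, Bmp, Tgfb, Smad, Acvr, Inhb, Gdf, Fgf, Notch, Dll, Jag and a digit, Vegf, Pdgf, Igf, Egf, Areg or Ereg. The platform held 164 such genes. A usable value could be assigned to 121 of them, out of 9866 genes in all, and 79 exceeded log2 4, taken as the background, on at least 4 arrays and were tested. The prefix also takes in a few genes that share a name and not a role, such as Egfbp2 and Igf2bp3.

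Each of 4 groups held 4 Affymetrix arrays, 16 in all. The mice were BALB/c or of a line that the titles call BALB-RAG, and they received the egg white allergen ovalbumin (OVA) or, as controls, phosphate-buffered saline (PBS). Harvest was on day 22, with the final exposure 1 day earlier. Which Rag gene the BALB-RAG line lacks is not stated in its titles, and neither is the age of the mice. Loss of Rag1 or Rag2 blocks the assembly of T and B cell receptors, so these lymphocytes do not mature. Separate animals are not stated either, so p-values cover only how these samples vary, and that variation may be technical. In RNA of whole lung, fewer cells of a type and less RNA per cell cannot be told apart.

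TGF-beta and bone morphogenetic proteins (BMPs) are secreted ligands that bind paired type I and type II receptors, which phosphorylate Smad proteins that enter the nucleus. Wnt ligands bind Frizzled (Fzd) receptors, and the Sfrp and Dkk proteins include secreted antagonists. Notch receptors are activated by the Delta-like and Jagged ligands on neighbouring cells. The fibroblast (FGF), insulin-like (IGF), epidermal (EGF), platelet-derived (PDGF) and vascular endothelial (VEGF) growth factors act through receptor tyrosine kinases, and binding proteins hold FGFs and IGFs outside the cell. In the lung these families are known for roles in airway and alveolar growth, vessels, repair and airway wall remodelling.

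Every gene name below rests on a realignment, because in the deposited table the labels and the values beside them did not belong together. Among the labels used, probe sets of the same gene had a median correlation across arrays of 0.115 as deposited (856 pairs above log2 6) and 0.635 once realigned (1696 pairs). Labels lay in 3 stretches, each with a constant shift. The rule that defined these genes put the values of the second stretch 47 rows above their labels. Scored alone, that stretch had a median same-gene correlation of 0.027 there (440 pairs) and 0.618 at 47 rows below (637 pairs), with 0.256 at the next best of 801 shifts. The direction below was therefore used, for 7500 of 14300 labels and 114 of the 171 probe sets of these genes. This was decided after a first fit in the other direction had been seen, on agreement within genes. That agreement was taken across all 16 arrays, so differences between groups are part of it. In windows of 500 labels, 47 rows below scored higher than 47 rows above in 13 of the 14 windows where both could be scored. It was the best of all shifts in 5 of 15 windows, and 47 rows above was the best in 1. Where 47 rows below was not the best, the winning shift was scored on 3 to 16 pairs. In those windows 47 rows below was scored on 5 to 61 pairs. Surfactant protein gene Sftpd had a mean of log2 12.84 at 47 rows below and 2.89 at 47 rows above, and Ager, a gene of alveolar type 1 cells, 11.99 and 2.67. Both probe sets of Xist, the RNA of the inactive X chromosome, went the other way, with means of 2.82 and 2.90 at 47 rows below and 7.40 and 6.05 at 47 rows above. The labels used here do not name the sex of the mice. These genes were picked after their values had been seen. At 47 rows above, the values under the names Fgfr4, Igf1r, Vegfa, Bmp5 and Fzd8 changed sign in at least 1 comparison in which the gene is called below.

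Some BALB-RAG titles were at odds with the lymphocyte transcripts measured. Cd3d, a subunit of the T cell receptor complex, lay at log2 5.93, 5.52, 4.88 and 5.35 in the PBS group labelled BALB-RAG, beside 6.13, 6.15, 4.98 and 5.65 on those of BALB/c after PBS. In the OVA group labelled BALB-RAG the values were 2.50, 7.03, 2.32 and 2.38. Igha, the heavy chain constant region of immunoglobulin A, lay at 10.79, 8.45, 9.04 and 10.72 on the BALB-RAG arrays after PBS and at 3.98, 10.97, 3.59 and 5.52 on those after OVA. All 4 arrays labelled BALB-RAG after PBS and replicate 2 after OVA thus carried Cd3d and Igha transcripts, and the other 3 carried little. B cell genes lay lower than in BALB/c. The mean log2 level of 6 tested B cell markers was 4.75 to 5.27 on BALB-RAG arrays after PBS. In BALB/c after PBS it was 5.76 to 5.99, and on BALB-RAG arrays after OVA 3.73, 5.85, 3.92 and 3.74. Ighm, the heavy chain of immunoglobulin M, lay at 7.25 to 8.75 on BALB-RAG and 8.95 to 10.15 on BALB/c arrays after PBS. Rag2 was under log2 4 on 15 of the 16 arrays and checks nothing, and Rag1 was not analysed here. Arrays of that line are called by their labels below, and results are also given without the arrays in doubt where a comparison allows it. Adipoq, a gene of fat cells, was also higher on BALB-RAG arrays, at 7.85 to 10.36 after PBS against 5.67 to 8.40 in BALB/c.

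In BALB/c mice most changes of these genes after OVA were falls. With limma at a Benjamini-Hochberg adjusted p under 0.05, 30 of the 79 tested genes were called, 4 higher and 26 lower. Over all 7276 tested genes 15.5% were called, 8.73% higher and 6.78% lower. The median log2 change was -0.351 over the 79 genes and 2.2e-05 over all tested genes. The higher genes were Tgfbi, Igf1, Pdgfc and Tgfbr1. All 4 arrays after OVA lay above all 4 after PBS for 5 of the 79 genes and below for 26, where 10.4% and 9.24% of all tested genes did so. Without any BALB-RAG array in the fit 23 genes were called, 5 higher and 18 lower, and 21 of them were among the 30. Without replicate 2 of BALB/c after OVA 19 were called, and with replicates 3 and 4 alone 9.

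**Figure D1:**
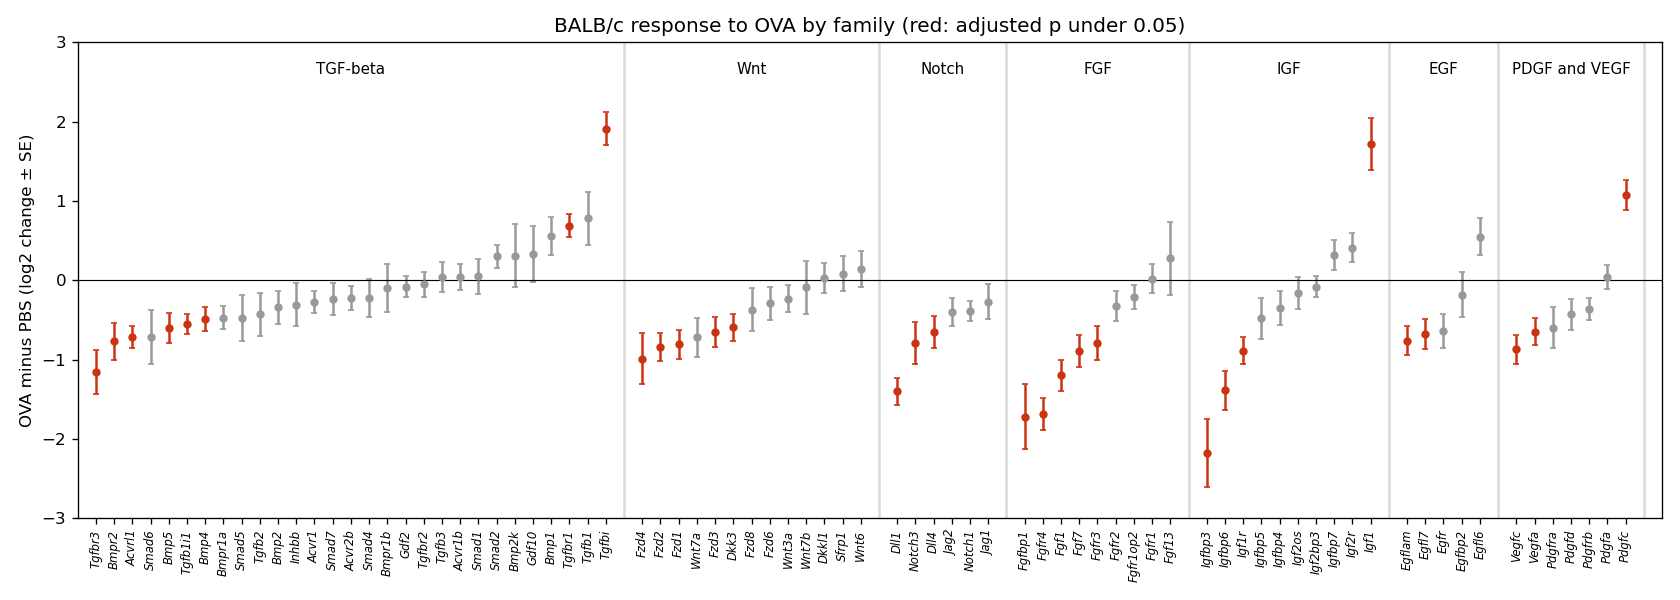
OVA minus PBS in BALB/c lung for each of the 79 tested genes, by family, as log2 change (y axis) with the standard error of the fit (bars). Red points are the 30 genes with an adjusted p under 0.05, of which 4 lie above 0 and 26 below.

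The promoters of the 2 genes that rose most and the 2 that fell most by log2 change are shown because they bound the range of the response. Each run is the 250 bases before the RefSeq start in GRCm38.p6, 5′ to 3′ on the gene's strand. Capitals mark matches on either strand to the letters CAGAC (SMAD), TGGGAA (RBPJ, the Notch effector), ATCAAAG (TCF/LEF, the Wnt effectors), or to the palindromic STAT6 motif.
Tgfbi (chr13:56609336-56609585, plus strand): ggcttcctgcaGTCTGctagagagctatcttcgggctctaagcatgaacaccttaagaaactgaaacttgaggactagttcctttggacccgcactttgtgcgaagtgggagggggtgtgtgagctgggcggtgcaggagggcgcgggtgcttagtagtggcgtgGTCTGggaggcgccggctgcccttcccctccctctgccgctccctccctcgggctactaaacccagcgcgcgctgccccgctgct
Igf1 (chr10:87860861-87861110, plus strand): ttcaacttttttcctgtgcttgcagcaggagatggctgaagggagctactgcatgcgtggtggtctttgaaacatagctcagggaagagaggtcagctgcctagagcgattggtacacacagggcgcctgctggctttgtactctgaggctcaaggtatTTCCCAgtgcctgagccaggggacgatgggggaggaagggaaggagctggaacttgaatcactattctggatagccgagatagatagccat
Igfbp3 (chr11:7213924-7214173, minus strand): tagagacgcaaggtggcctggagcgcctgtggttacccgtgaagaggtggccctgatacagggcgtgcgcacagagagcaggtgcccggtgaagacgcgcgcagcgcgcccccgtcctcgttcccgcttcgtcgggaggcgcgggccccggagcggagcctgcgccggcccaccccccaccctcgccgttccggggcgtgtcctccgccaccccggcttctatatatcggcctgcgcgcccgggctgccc
Fgfbp1 (chr5:43981800-43982049, minus strand): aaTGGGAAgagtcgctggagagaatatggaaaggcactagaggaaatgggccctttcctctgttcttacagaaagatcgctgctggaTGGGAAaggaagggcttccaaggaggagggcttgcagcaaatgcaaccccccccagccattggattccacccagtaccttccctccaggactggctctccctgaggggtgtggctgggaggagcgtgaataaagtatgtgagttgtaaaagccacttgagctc
Tgfbi held 2 matches to the SMAD letters, Igf1 1 and Fgfbp1 2 to the RBPJ letters, and Igfbp3 had no match to any of them. Of 32851 promoters of this length, 42.2% held the SMAD letters, 21.6% the RBPJ letters, 3.21% the TCF/LEF letters and 5.85% the STAT6 letters. A match is a string of letters and not a bound site.

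Among TGF-beta family genes, 2 of 29 tested rose and 6 fell. Tgfbi, a secreted matrix protein named for its induction by TGF-beta, lay at log2 8.65, 8.90, 8.07 and 7.99 after PBS, and OVA arrays at 10.53, 10.38, 10.25 and 10.06. The groups did not overlap, and the difference was 1.91 ± 0.21 (log2, SE), or 3.75-fold (limma, adjusted p = 2.32e-05). Tgfbr1, the type I receptor of TGF-beta, lay at 9.02, 9.02, 9.24 and 9.25 after PBS and 10.04, 9.87, 9.91 and 9.48 after OVA, a rise of 0.69 ± 0.15 (limma, adjusted p = 0.00599). The call of this rise was lost with the mean of the gene's probe sets and with replicates 3 and 4 alone. Tgfbr3, the co-receptor betaglycan, went the other way. It lay at 9.79, 9.81, 10.24 and 10.15 after PBS, against 8.38, 7.99, 9.59 and 9.39 after OVA, with no overlap and a difference of -1.16 ± 0.28 (limma, adjusted p = 0.0101). The first 2 OVA replicates were the lower ones.

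Other receptors of the family fell by less. Acvrl1, a type I receptor of endothelium, differed by -0.72 ± 0.14 (limma, adjusted p = 0.00246), and Bmpr2, the type II BMP receptor, by -0.77 ± 0.23 with overlapping groups (limma, adjusted p = 0.0362). Tgfbr2, the type II receptor of TGF-beta, differed by -0.05 ± 0.16 (limma, adjusted p = 0.902). Of the ligands, Bmp4 differed by -0.49 ± 0.15 (limma, adjusted p = 0.0343) and Bmp5 by -0.60 ± 0.19 (limma, adjusted p = 0.0429). Of 31 alternative settings, 22 kept the call of Bmpr2, 22 that of Bmp4 and 18 that of Bmp5. Tgfb1i1, a focal adhesion protein also called Hic-5, differed by -0.55 ± 0.13 (limma, adjusted p = 0.00816).

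The calls of the TGF-beta ligand Tgfb1 depended on how the replicate numbers were treated. Tgfb1 lay at 7.38, 7.38, 6.42 and 6.35 after PBS and 8.09, 8.15, 7.21 and 7.21 after OVA. Replicates 1 and 2 were the higher in both groups. The difference was 0.78 ± 0.33 (limma, adjusted p = 0.137), and it was 0.74 within replicates 1 and 2 and 0.82 within replicates 3 and 4. With a term for these pairs of numbers it was 0.78 ± 0.15 (limma, adjusted p = 0.00145). Tgfb2 differed by -0.43 ± 0.27 and Tgfb3 by 0.04 ± 0.19 (limma, adjusted p = 0.345 and 0.928). Of the 6 tested Smads limma called 0 in this comparison, and 0 had an unadjusted p under 0.05. Smad4, the shared partner of the others, differed by -0.22 ± 0.24, and Smad6, an inhibitor of BMP signalling, by -0.71 ± 0.34 (limma, adjusted p = 0.636 and 0.185). Inhba exceeded log2 4 on 2 arrays and was not tested.

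In the Wnt family 5 of 13 tested genes fell and 0 rose. They were 4 Frizzled receptors and Dkk3, a secreted Dickkopf-family protein. Fzd2 lay at 5.85, 6.13, 6.20 and 6.26 after PBS and 5.07, 5.52, 5.24 and 5.25 after OVA, with no overlap and a difference of -0.84 ± 0.18 (limma, adjusted p = 0.0042). Its other probe sets differed by -0.20 and -0.33 and were not called. Fzd1 differed by -0.81 ± 0.18, Fzd3 by -0.65 ± 0.19 and Fzd4 by -0.99 ± 0.32 (limma, adjusted p = 0.00669, 0.0311 and 0.0485). The call of Fzd4 was lost in 17 of 31 alternative settings, and that of Fzd3 in 9. Dkk3 differed by -0.59 ± 0.17 (limma, adjusted p = 0.0272). Of 12 Wnt ligands with a value only 4 were tested. Wnt3a differed by -0.23 ± 0.17, and the antagonist Sfrp1 by 0.08 ± 0.22 (limma, adjusted p = 0.436 and 0.881).

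All 6 tested Notch genes had estimates below 0, and 3 passed the test. Dll1, a Delta-like ligand, lay at 9.19, 9.15, 9.36 and 9.37 after PBS, while OVA arrays lay between 7.61 and 8.02. The groups lay more than 1 log2 unit apart, with a difference of -1.40 ± 0.17, 2.65-fold lower (limma, adjusted p = 6.67e-05). Dll4, a ligand known from endothelium, differed by -0.65 ± 0.20, and Notch3, a receptor of mural cells, by -0.79 ± 0.26 (limma, adjusted p = 0.0354 and 0.0469). The call of Notch3 was lost in 18 of 31 alternative settings, 9 of them the omission of 1 array. Notch1 and the ligand Jag1 differed by -0.39 ± 0.13 and -0.27 ± 0.22 (limma, adjusted p = 0.0588 and 0.517). With the term for the pairs of replicate numbers Notch1 passed (limma, adjusted p = 0.012).

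In the FGF family 5 of 9 tested genes fell and 0 rose. Fgfr4, a receptor, lay at 6.12, 6.18, 6.43 and 6.67 after PBS and 5.16, 4.64, 4.46 and 4.38 after OVA, a difference of -1.69 ± 0.20 or 3.22-fold lower (limma, adjusted p = 4.18e-05). This direction rests on the placement of the second stretch: at 47 rows above, the values under this name differed by 1.43 (limma, adjusted p = 0.011). Fgf1, an FGF ligand, lay at 9.82, 9.72, 10.10 and 10.15 after PBS and 8.43, 8.27, 9.15 and 9.15 after OVA (-1.20 ± 0.20, limma, adjusted p = 0.000773). Neither gene's groups overlapped. Fgf7, a ligand that acts on epithelium, differed by -0.89 ± 0.20, and the receptor Fgfr3 by -0.79 ± 0.21 (limma, adjusted p = 0.00656 and 0.0161). The call of Fgfr3 was lost in 6 of 31 alternative settings, among them the mean of its probe sets. Fgfbp1, which releases FGFs from the matrix, lay at 6.83, 6.74, 6.80 and 6.24 after PBS against 4.04, 3.79, 6.26 and 5.65 after OVA. The difference was -1.72 ± 0.41 (limma, adjusted p = 0.00925), but replicates 3 and 4 after OVA lay near the PBS arrays.

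The IGF family held both the rise of a ligand and the fall of its receptor. Igf1 lay at 6.80, 6.95, 6.77 and 6.81 after PBS, against 8.96, 9.51, 8.30 and 7.43 after OVA, 3.29-fold higher (1.72 ± 0.33, limma, adjusted p = 0.00208). A second probe set rose by 1.61. The PBS arrays lay close together and the OVA arrays were spread. Igf1r, the IGF1 receptor, lay at 7.31, 7.59, 7.27 and 7.30 after PBS and 6.54, 6.61, 6.07 and 6.68 after OVA (-0.89 ± 0.17, limma, adjusted p = 0.00202).

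The binding proteins Igfbp3 and Igfbp6 fell and the other 5 tested genes of that role did not pass. Igfbp3, the main IGF carrier in blood, lay at 8.43, 8.33, 9.10 and 9.47 after PBS and 5.63, 5.57, 7.70 and 7.70 after OVA, 4.54-fold lower (-2.18 ± 0.43, limma, adjusted p = 0.00251). Igfbp6 lay at 10.55, 10.64, 9.93 and 9.83 after PBS, against 8.65, 8.49, 9.30 and 8.96 after OVA (-1.39 ± 0.24, limma, adjusted p = 0.00114). Neither pair of groups overlapped, and for both genes OVA replicates 1 and 2 were the lowest. Igfbp7 and Igfbp4 differed by 0.32 ± 0.19 and -0.35 ± 0.21 (limma, adjusted p = 0.315 and 0.319).

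Of the other growth factor genes, Pdgfc was the only 1 of 7 PDGF and VEGF genes that rose. This PDGF ligand lay at 5.69, 5.41, 5.78 and 5.59 after PBS and 6.97, 6.83, 6.60 and 6.39 after OVA (1.08 ± 0.19, limma, adjusted p = 0.00122). Vegfa, the main ligand of vessel growth, differed by -0.65 ± 0.17 and Vegfc, a ligand of lymphatic vessels, by -0.87 ± 0.18 (limma, adjusted p = 0.0135 and 0.00418). Pdgfa differed by 0.04 ± 0.15 and Pdgfra by -0.60 ± 0.26 (limma, adjusted p = 0.922 and 0.142). In the EGF group Egfl7, a secreted endothelial protein, and Egflam, a matrix protein, differed by -0.68 ± 0.19 and -0.76 ± 0.18 (limma, adjusted p = 0.0246 and 0.00851). Egfr, the EGF receptor, differed by -0.64 ± 0.22 (limma, adjusted p = 0.0647). With the term for the pairs of replicate numbers Pdgfra and Egfr passed (limma, adjusted p = 0.00486 and 0.0491).

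**Figure D2:**
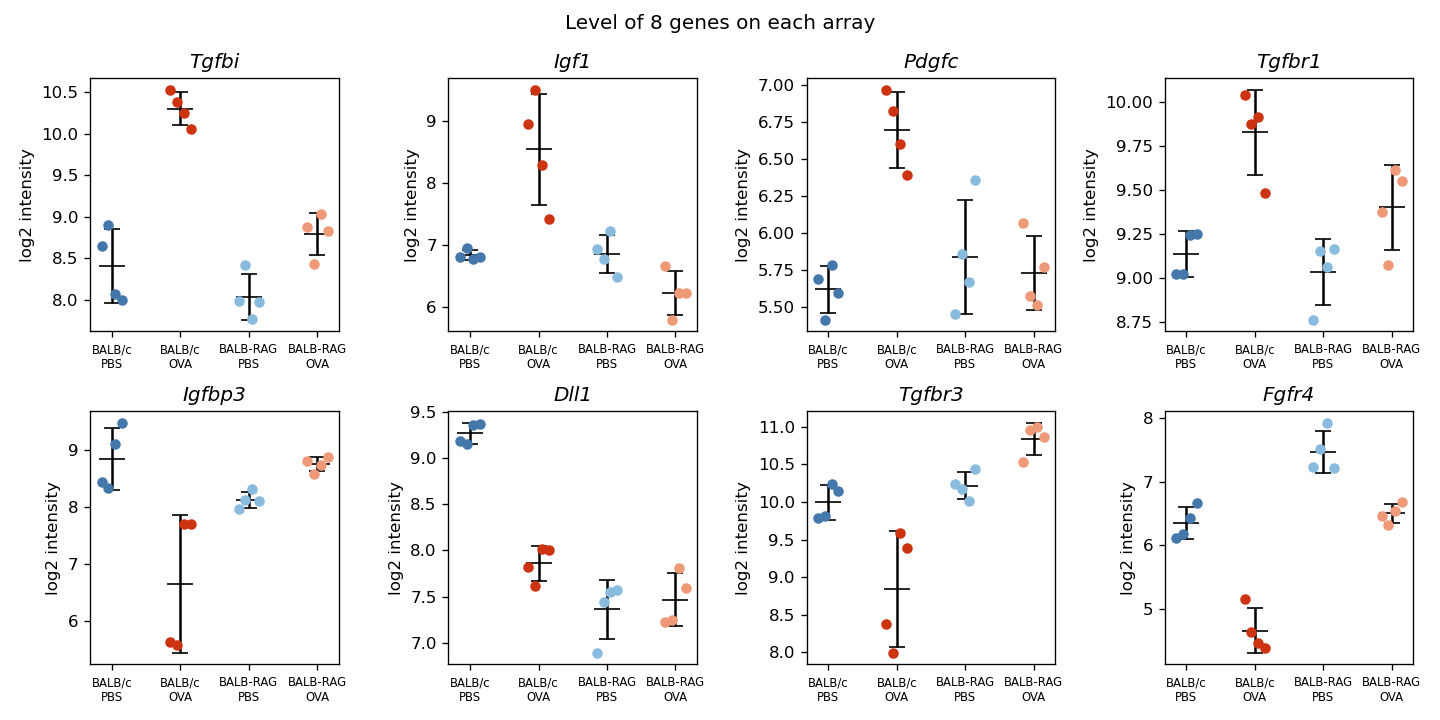
Log2 intensity (y axis) of 8 genes on each array (points), with the group mean and SD (bars), for the 4 groups of 4 arrays; the genes were picked after their values were seen. Tgfbi, Igf1, Pdgfc and Tgfbr1 are higher after OVA in BALB/c, and Igfbp3, Dll1, Tgfbr3 and Fgfr4 are lower, with Igfbp3 and Tgfbr3 lowest on 2 of the OVA arrays.

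Companion genes of the pathways were taken from lists that leave these families out. Their counts for OVA in BALB/c stand beside the 8.73% of all tested genes that were higher and the 6.78% that were lower. Of 16 tested modulators of TGF-beta 3 rose and 5 fell: Bambi, a decoy receptor, differed by -1.15 ± 0.17, and the co-receptor Eng by -0.96 ± 0.17 (limma, adjusted p = 0.00033 and 0.000937). The BMP antagonist Chrdl1 differed by -1.52 ± 0.28 and the BMP modulator Twsg1 by -0.78 ± 0.17 (limma, adjusted p = 0.00171 and 0.0049). The 3 that rose were Pmepa1 (1.03 ± 0.24), Tgif1 (0.81 ± 0.23) and Fstl1 (0.63 ± 0.18; limma, adjusted p = 0.00897, 0.0268 and 0.0242). The median change of the 16 was -0.01. Of 12 tested TGF-beta and BMP target genes 5 rose and 0 fell. Col1a2 and Col1a1, the chains of type I collagen, differed by 1.60 ± 0.22 and 1.47 ± 0.29 (limma, adjusted p = 0.000182 and 0.0025). The matrix genes Fn1 and Tnc differed by 1.08 ± 0.15 and 1.61 ± 0.32 (limma, adjusted p = 0.000144 and 0.0026). The collagens are also markers of fibroblasts.

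Of 23 tested Wnt pathway genes 1 rose and 1 fell: Ccn5, a secreted matricellular protein, by 0.64 ± 0.16, and the Wnt co-receptor Ryk by -0.46 ± 0.14 (limma, adjusted p = 0.0132 and 0.0364). Of 21 Notch pathway genes 1 rose and 2 fell. The Notch target Nrarp differed by -0.92 ± 0.21, the protease Adam17 by 0.69 ± 0.16 and the inhibitor Numb by -0.52 ± 0.12 (limma, adjusted p = 0.0063, 0.0063 and 0.00919). Of 27 growth factor partners 7 fell and 0 rose. Spry1, Errfi1 and Spred2, feedback inhibitors of receptor tyrosine kinase signalling, differed by -0.96 ± 0.14, -1.58 ± 0.29 and -0.70 ± 0.17, and the VEGF receptor Flt1 by -0.96 ± 0.21 (limma, adjusted p = 0.000187, 0.00168, 0.0104 and 0.00521).

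Markers of several cell types, though not of all, also changed after OVA in BALB/c. The mean log2 level of 7 tested endothelial markers lay at 9.34 to 9.60 after PBS and 8.60 to 9.21 after OVA in BALB/c, and 3 of the 7 were called lower. All 4 tested macrophage markers and all 4 goblet cell markers rose, with mean levels of 6.29 to 6.97 and 4.56 to 5.72 after PBS against 8.51 to 9.91 and 9.45 to 10.05 after OVA. Fibroblast markers lay at 7.78 to 7.87 after PBS and 8.46 to 9.16 after OVA, with 3 of 5 higher. Cardiac muscle markers lay at 8.25 to 8.83 after PBS and 6.94 to 7.86 after OVA, with 1 of 5 called lower. T cell markers (7 of 9 higher) lay at 4.67 to 5.09 after PBS and 5.71 to 6.76 after OVA, and dendritic cell markers (5 of 6 higher) at 6.62 to 7.01 and 8.12 to 8.84. Plasma cell and immunoglobulin markers (3 of 4 higher) lay at 7.66 to 9.22 and 10.12 to 12.21, and markers of proliferating cells (3 of 3 higher) at 4.76 to 5.50 and 7.24 to 8.16. Club cell markers (2 of 2 lower) lay at 13.11 to 13.18 and 11.87 to 12.66. No marker was called of smooth muscle (5 tested), neutrophils (4), skeletal muscle (4), NK cells (2), ciliated cells (2) or mast cells (1). For B cells (6 tested), alveolar type 2 cells (5) and eosinophils (3), 1 marker each was called higher. For alveolar type 1 cells (4), mesothelium (3) and adipose tissue (2), 1 each was called lower. Eosinophil markers lay at 4.61 to 4.82 after PBS, with Il5ra and Rnase2a under background on all 4 arrays, and at 6.72 to 8.08 after OVA. B cell markers lay at 5.76 to 5.99 and 6.19 to 7.35, and type 1 cell markers at 10.34 to 10.55 and 9.91 to 10.17. The ranges of the other types among these overlapped. The part of these cell types in the changes of the signalling genes was not tested.

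The replicate numbers also divided the arrays. Level differed between replicates 1 and 2 and replicates 3 and 4 in 38.6% of all tested genes and in 32 of the 79, although no label calls these numbers a batch. All 30 called genes had the same sign in both pairs of numbers, and 20 of them had the larger change in replicates 1 and 2. The genes were called on these same arrays, which favours equal signs, so this is no independent check. Fgfbp1 was the 1 gene of the 79 whose BALB/c response differed between the pairs (0.124% of all tested genes), with -2.87 in replicates 1 and 2 and -0.57 in replicates 3 and 4 (limma, adjusted p = 0.019 for the difference). Igfbp3 changed by -2.78 and -1.58, and Tgfbi by 1.68 and 2.13.

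**Figure D3:**
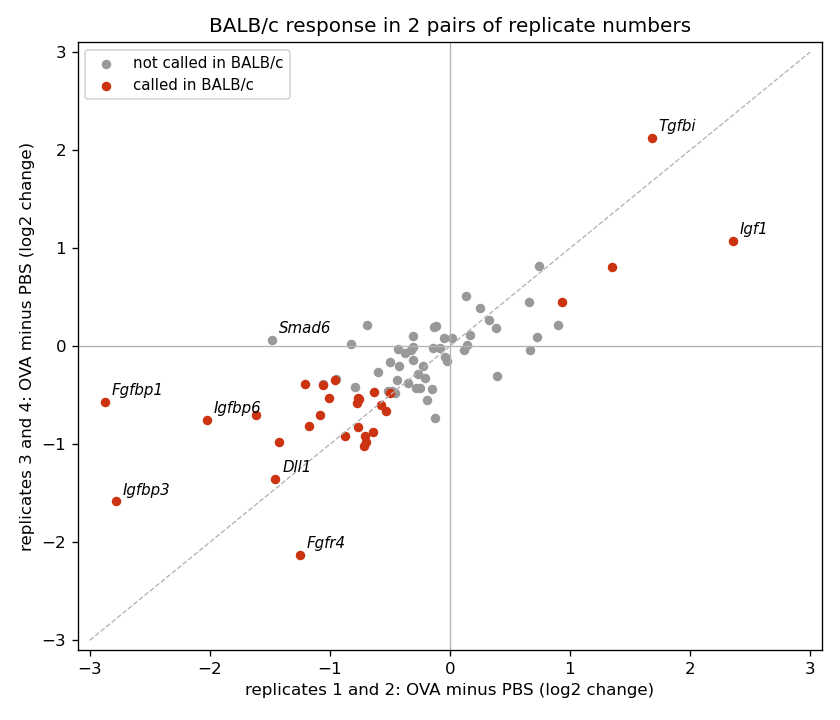
BALB/c OVA minus PBS as log2 change in replicates 1 and 2 (x axis) and in replicates 3 and 4 (y axis), 1 point per gene, with the line of equality dashed. All 30 called genes (red), called on these same arrays, have the same sign on both axes. Fgfbp1 lies far from the line at -2.87 and -0.57.

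On arrays labelled BALB-RAG no gene of these families passed the test after OVA. Limma called 0 of the 79, where it called 0.165% of all tested genes. At an unadjusted p under 0.05 it gave 10 of the 79 and 562 of all 7276. Fgfr4 lay nearest to the threshold, at 7.23, 7.51, 7.92 and 7.21 after PBS, with OVA arrays at 6.46, 6.32, 6.54 and 6.68. Its groups did not overlap, and the difference was -0.97 ± 0.20 (limma, adjusted p = 0.0551). Tgfbi lay at 7.98, 8.42, 7.76 and 7.97 after PBS and 8.87, 8.43, 9.03 and 8.83 after OVA (0.76 ± 0.21, limma, adjusted p = 0.231). Outside these families, 2 of the 12 tested TGF-beta and BMP target genes rose and 0 fell, where 0.137% of all tested genes rose. They were Ccn2 (1.15 ± 0.18) and Lox (1.55 ± 0.17; limma, adjusted p = 0.012 and 0.000927). In BALB/c these 2 differed by -0.25 and 0.41 after OVA and were not called. Over the 12 target genes the median change on BALB-RAG arrays was -0.14. Among them Col1a1 and Col1a2 differed there by -1.31 ± 0.29 and -1.03 ± 0.22 and were not called (limma, adjusted p = 0.0844 and 0.0812). Fgfr4 passed the test in 3 alternative settings, among them the fit without replicate 1 of BALB/c after OVA. The count was 0 as well without replicate 2 after OVA, the array of the OVA group that carried lymphocyte transcripts. The BALB-RAG arrays after PBS carried them too and stayed in that fit, so the doubt about the labels remains.

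The OVA responses of the lines differed for 16 of the 79 genes (8.49% of all tested genes), 3 toward a higher (4.63% of all) and 13 toward a lower (3.86% of all) response in BALB/c. The 3 were Igf1, Pdgfc and Tgfbi. For Igf1 the BALB/c response was larger by 2.35 ± 0.46 (limma, adjusted p = 0.0051). Igf1 lay at 6.93, 6.78, 7.23 and 6.49 on BALB-RAG arrays after PBS and 6.66, 5.79, 6.22 and 6.22 after OVA. For Pdgfc and Tgfbi the difference was 1.19 ± 0.27 and 1.15 ± 0.30 (limma, adjusted p = 0.0131 and 0.0258).

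Among the 13, Igfbp3 differed most, by -2.82 ± 0.61 (limma, adjusted p = 0.00875). On BALB-RAG arrays it lay at 7.96, 8.11, 8.31 and 8.10 after PBS and 8.81, 8.58, 8.73 and 8.88 after OVA, all 4 above the PBS arrays. Igfbp6 differed by -1.95 ± 0.35, Tgfbr3 by -1.78 ± 0.40 and Igf1r by -1.40 ± 0.24 (limma, adjusted p = 0.0024, 0.011 and 0.00175). Fgfbp1, Vegfc, Fgf7, Fgfr3 and Fgf1 differed by -2.13, -1.22, -1.07, -1.03 and -0.98. Fzd6, Acvrl1 and Acvr2b differed by -1.04, -0.76 and -0.75. Dll1 differed by -1.51 ± 0.25 (limma, adjusted p = 0.00128), but its BALB-RAG arrays were low after PBS too. Of these 16 genes 14 were also called in BALB/c alone. Fzd6 and Acvr2b were not. Their group means went from 7.42 to 7.13 and from 4.77 to 4.55 after OVA in BALB/c. On BALB-RAG arrays they went from 6.27 to 7.01 and from 4.91 to 5.45. Without replicate 2 of BALB-RAG after OVA 13 genes were called, 11 of them among the 16. The BALB-RAG arrays after PBS, also in doubt, stayed in that fit. Without replicate 1 or 2 of BALB/c after OVA 8 were called, and without any 1 of 6 other arrays 10 were called. With a term for the pairs of replicate numbers 25 were called, Tgfb1 among them (1.15 ± 0.21, limma, adjusted p = 0.00202), and with replicates 3 and 4 alone 5. The calls of Fgfr3 and Fgf1 were lost in 18 and 17 of 30 alternative settings, and those of Fzd6, Acvr2b, Fgfr3 and Fgf1 were each lost in 12 of the 16 fits that left out 1 array. Igf1r, with the second stretch at 47 rows above, differed by 0.64 (limma, adjusted p = 0.423).

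**Figure D4:**
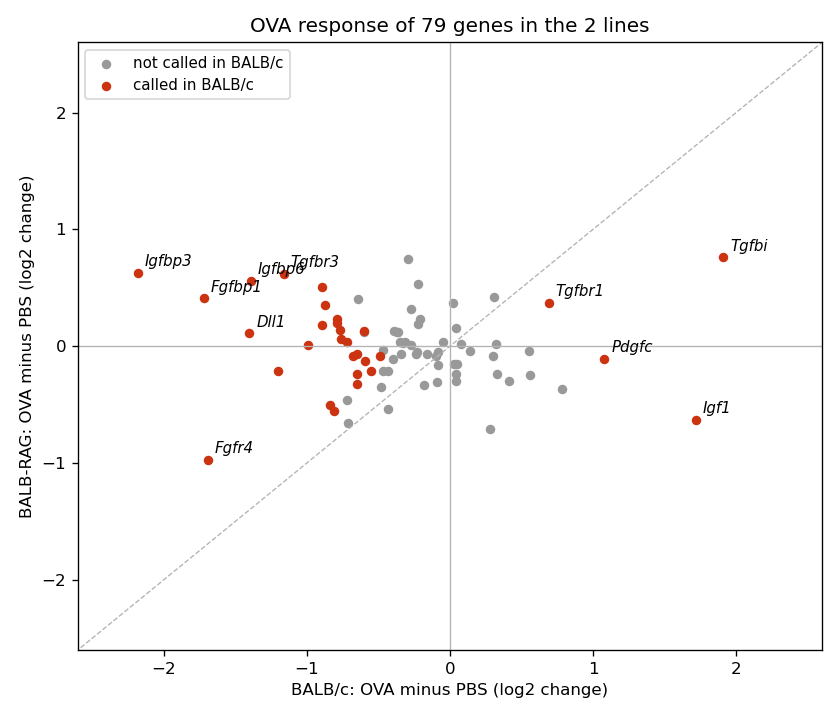
OVA minus PBS as log2 change in BALB/c (x axis) and in the line labelled BALB-RAG (y axis), 1 point per tested gene, with the line of equality dashed. The 30 genes called in BALB/c (red) spread from -2.18 to 1.91 along x, and 0 genes were called along y.

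After PBS, 4 of the 79 genes differed between the lines (3.9% of all tested genes). Of these 2 were higher (1.97% of all) and 2 lower (1.94% of all) on BALB-RAG arrays. With a term for the pairs of replicate numbers 11 were called, with quantile normalisation 7, and with replicates 3 and 4 alone 1. Dll1 was lower on BALB-RAG arrays, at 6.89, 7.44, 7.55 and 7.57 against 9.19, 9.15, 9.36 and 9.37 in BALB/c, a difference of -1.91 ± 0.17 or 3.75-fold (limma, adjusted p = 2.57e-05). After OVA the BALB-RAG arrays lay at 7.22, 7.25, 7.81 and 7.59, overlapping those of BALB/c after OVA. Fzd6, a Frizzled receptor, lay at 5.79, 6.38, 6.39 and 6.50 against 7.48, 7.04, 7.49 and 7.68 (-1.16 ± 0.21, limma, adjusted p = 0.00643). Fgfr4 was higher by 1.12 ± 0.20 (limma, adjusted p = 0.00465), and at 47 rows above the values under its name differed by -1.37 (limma, adjusted p = 0.0388). Fgf13, an intracellular FGF homologue, lay at 4.98, 3.98, 3.82 and 6.34 against 3.13, 2.70, 2.76 and 3.33, all under background. Replicates 2 and 3 of BALB-RAG were also just under it, and by the group mean Fgf13 was at least 1.72-fold higher. Fgf13 exceeded log2 4 on no BALB/c array and passed the filter only through BALB-RAG arrays. Its call as higher in that line is therefore not independent of the filter. The test on unfloored values called it (limma, adjusted p = 0.0388), but the call was lost in 13 of 29 alternative settings. Among these were the one with values under log2 4 set to 4 and 8 that left out 1 array. Cardiac muscle markers were at a mean of 11.37, 9.90, 8.69 and 11.24 on the 4 BALB-RAG arrays after PBS, and at 8.25 to 8.83 in BALB/c. Their part in the Fgf13 result was not tested.

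After OVA, 28 of the 79 genes differed between the lines (23.8% of all tested genes), 22 higher (11.6% of all) and 6 lower (12.1% of all) on BALB-RAG arrays. The groups did not overlap for 27 genes that were higher and 7 that were lower, where 13.3% and 13.6% of all tested genes did so. With replicates 3 and 4 alone 16 were called. This comparison shares its BALB/c arrays with the first. Cell type markers differed too: 4 of 4 of macrophages, 8 of 9 of T cells and 6 of 6 of dendritic cells were lower on BALB-RAG arrays. Cardiac muscle (5 of 5), smooth muscle (4 of 5) and adipose tissue (2 of 2) were higher, at 9.07 to 10.79 against 6.94 to 7.86, 8.82 to 9.24 against 7.79 to 8.83 and 9.03 to 11.08 against 5.61 to 7.54. Their part in the differences of the signalling genes was not tested. The 6 lower genes were Igf1 (-2.33 ± 0.33), Tgfbi (-1.52 ± 0.21), Egfl6 (-1.29 ± 0.23), Tgfb1 (-1.16 ± 0.33), Pdgfc (-0.97 ± 0.19) and Igf2r (-0.56 ± 0.18). Tgfb1 lay at 6.64, 6.67, 6.44 and 6.27 on BALB-RAG arrays, below all 4 BALB/c arrays (limma, adjusted p = 0.0188). Egfl6, a secreted EGF-like protein, lay at 8.21, 7.79, 8.32 and 8.11 against 9.51, 9.37, 9.52 and 9.19 (limma, adjusted p = 0.00075).

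The higher genes on BALB-RAG arrays were led by Fgfbp1 (2.37 ± 0.41), Igfbp3 (2.10 ± 0.43), Tgfbr3 (2.00 ± 0.28) and Fgfr4 (1.84 ± 0.20). At 47 rows above, the values under the names Fgfr4 and Igf1r differed by -2.82 and -2.01 instead (limma, adjusted p = 3.6e-05 and 0.000142). Jag1, which had not passed the test in BALB/c, lay at 9.03, 8.86, 9.68 and 9.51 against 7.87, 8.22, 8.14 and 8.23 (1.15 ± 0.22, limma, adjusted p = 0.00138). It also lay at 8.51, 8.61, 9.23 and 9.46 on BALB-RAG arrays after PBS. Vegfc, Notch3, Igf1r, Fgf7, Igfbp6 and Dkk3 were higher by 1.40, 1.39, 1.34, 1.31, 1.30 and 1.08. Pdgfrb, the PDGF receptor of mural cells, Acvrl1, Acvr2b and Egflam were higher by 0.92, 0.92, 0.90 and 0.88. Bmpr2, Fgf1, Fzd8, Fgfr3, Vegfa, Bmpr1a and Tgfb1i1 were higher by 0.83, 0.83, 0.81, 0.76, 0.56, 0.54 and 0.38. Without replicate 2 of BALB-RAG after OVA 27 genes were called, 26 of them among the 28.

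Of the 121 genes with a value, 42 were not tested, and 38 of these exceeded log2 4 on 0 arrays. They include 14 genes named Fgf and a number, among them Fgf10, which directs lung branching, and the EGF ligands Egf and Ereg. The other 43 genes of the 164, such as Notch2, Wnt5a and Smad3, were not analysed here. For 39 of the 79 tested genes no comparison passed the test.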

How the data were processed

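Total RNA of mouse lung, isolated with TRIZOL, was labelled with biotin and hybridised to Affymetrix arrays, per the labels' protocols. The deposited table holds 1 linear intensity per probe set and array, made by the authors with GCRMA, per the submitters' processing notes; no version is named there. Intensities were taken to log2 with no further normalisation. The depth of an array is not a read count, and the 4 arrays of a group limit the precision.

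Labels and values were realigned in 3 stretches, 64 rows above, 47 rows below and a longer shift below the label, covering 14300 labels. The defining rule states 47 rows above for the second stretch; the change was made after seeing the data, and the cause of the shifts is unknown. The 13146 realigned labels with 1 gene symbol in the platform annotation were used, 366 with several and 788 with none were not, and 13127 matched RefSeq by Entrez ID. Each gene was represented by its probe set with the highest mean. Genes over log2 4 on at least 4 arrays were kept.

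Limma 3.58.1 (R 4.3.3) fitted 4 group means over 16 arrays (12 residual degrees of freedom) with 5 comparisons, and Benjamini-Hochberg adjustment ran over all tested genes at 0.05. The procedure was tested on simulated data with changes added to BALB/c after OVA and no difference between pairs of replicate numbers. It called 18.2% of changes of log2 0.5, 70.1% of those of 1 and 94% of those of 2. Of its calls 6.87% were false. Changes near log2 0.5 were thus mostly missed. Differences are log2, and ± is the standard error. Same-numbered replicates had correlated deviations (median 0.3, lowest 0.0253, 23 of 24 pairs over 0.1), which did not meet the criterion for pairing. Named were the called genes (at most 30 per comparison), the 2 brightest of each role where described, 14 set genes such as Tgfb1 where measured, and up to 4 genes with the smallest p per companion list; other genes were named after their values were seen. Promoters are the 250 bases before the start in RefSeq's GRCm38.p6 table. Alternatives covered the filter, probe set choice, floor, normalisation, replicate block, replicate pairs, single arrays, stretch ends, prior variance and the stated direction of the second stretch. The members and lists were chosen with earlier results of these data known.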

Additional observations from a re-analysis of the deposited data

Results flagged for a closer look

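In 9 of 160 group checks of 4 arrays, over the 40 genes called in any comparison, 1 array lay far from the other 3 by Dixon's criterion; chance gives about 1 in 20. In BALB/c after PBS, replicate 3 stood apart for Acvr2b (4.55) and Fzd1 (6.07), replicate 4 for Fgfbp1 (6.24) and replicate 2 for Igf1r (7.59). On arrays labelled BALB-RAG after OVA, replicate 2 stood apart for Fzd3 (5.70), Fzd4 (7.79, against 9.19 to 9.20) and Vegfa (10.95). That array is the one of its group that carried lymphocyte transcripts. Replicate 4 stood apart there for Fzd1 (5.14), and replicate 1 after PBS for Fzd6 (5.79).

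The OVA response differed between the lines, by limma's test of the difference itself, for 16 genes. On the log2 scale, BALB/c minus BALB-RAG, the difference was 2.35 for Igf1, 1.19 for Pdgfc and 1.15 for Tgfbi. It was -2.82 for Igfbp3, -2.13 for Fgfbp1, -1.95 for Igfbp6, -1.78 for Tgfbr3, -1.51 for Dll1, -1.40 for Igf1r and -1.22 for Vegfc. It was -1.07 for Fgf7, -1.04 for Fzd6, -1.03 for Fgfr3, -0.98 for Fgf1, -0.76 for Acvrl1 and -0.75 for Acvr2b.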

How the results depend on the processing

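No called gene changed direction except with the second stretch placed 47 rows above. With all arrays in the fit, 30, 0, 16, 4 and 28 of the 79 genes were called for OVA in BALB/c, OVA in BALB-RAG, the difference of the responses, and the lines after PBS and after OVA. With replicates 3 and 4 alone the counts fell to 9 in BALB/c, 5 for the difference, 1 after PBS and 16 after OVA. Leaving out 1 array at a time gave 19 to 33 in BALB/c, 0 to 1 in BALB-RAG, 8 to 17 for the difference, 3 to 5 after PBS and 20 to 32 after OVA. The BALB-RAG call was Fgfr4, called as the 1 gene with a filter at log2 5, with a term for replicates 1 and 2 against 3 and 4, and without BALB/c OVA replicate 1 (limma, adjusted p = 0.047, 0.0316 and 0.0406). With the replicate number as a block, which does not pair the samples by the labels (8 of 16 samples correlated best with their own number), 35, 0, 25, 9 and 41 genes were called. With the term for the pairs of numbers, 25 were called for the difference and 11 after PBS. Quantile normalisation gave 7 after PBS. With the second stretch placed 47 rows above, as the defining rule states (added after seeing the data), the counts were 24, 0, 13, 8 and 28, and 9 of the 24 were higher. There, 72 of the 78 calls had a value, 47 of them were still called in the same direction and 10 changed sign. On the log2 scale the changed signs were, for OVA in BALB/c, Fgfr4 1.43, Bmp5 0.93, Igf1r 0.45 and Vegfa 0.28, and for the difference Igf1r 0.64. They were Fgfr4 -1.37 after PBS, and Fgfr4 -2.82, Igf1r -2.01, Fzd8 -0.64 and Vegfa -0.17 after OVA. That setting gives these names the values of other rows. Of the called genes 4 of 30, 3 of 16, 1 of 4 and 10 of 28 were called in every setting that gave them a value. The cause of other changes was not tested. Signal near background limits the 42 genes that were not tested.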
